A study of Mus musculus with 6 samples.

Results

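Leukocyte adhesion genes were followed in GFP-positive cells sorted from the AGM (aorta-gonad-mesonephros) of mouse embryos, the region around the dorsal aorta in which blood stem cells emerge. The set held 31 genes taken by name: 14 integrin alpha chains, 7 integrin beta chains, 5 immunoglobulin-type ligands and junction proteins, 3 genes of selectin and hyaluronan binding, and 2 cytoplasmic integrin activators. All 31 were among the 51912 genes counted in each library. Embryos of day E10.5 carried MacGreen (Csf1r-EGFP), where EGFP is driven from the Csf1r promoter and macrophages and some of their precursors are green. Green cells were sorted by surface CD206, the mannose receptor encoded by Mrc1, into GFP+CD206- cells (CD206neg here) and GFP+CD206+ cells (CD206pos here), and both groups share transgene, stage, tissue and digestion with collagenase (45 min at 37 degrees). There were 3 libraries per group, each made from 3 to 5 pooled AGM, and the study drew on 3 litters. The titles number the AGM from 1 to 3 in both groups; a shared number is taken here to mean a shared litter, which the labels do not state outright.

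Integrins are paired receptors of 1 alpha and 1 beta chain that bind matrix proteins or ligands on other cells. The beta 2 chain (Itgb2) is made by leukocytes and joins Itgal, Itgam or Itgax, whereas the beta 1 chain (Itgb1) joins many alpha chains and serves fibronectin, laminin and VCAM-1 binding. Talin (Tln1) and kindlin-3 (Fermt3) bind the beta chain tails and switch integrins on. Selectins and their ligand PSGL-1 (Selplg) support rolling of leukocytes on vessel walls, and CD44 binds hyaluronan.

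The libraries held 16730846 to 18214283 reads in genes. Values are CPM, read counts scaled to library size with TMM factors, and comparisons between genes use CPM per kb of annotated exon. Log2 fold changes are positive where CD206pos was higher. Mrc1, whose product was sorted on, was at 51.6, 119 and 112 CPM in CD206neg and at 1458, 1792 and 1506 CPM in CD206pos. All 12 macrophage markers listed were read in both groups, Csf1r among them, and their summed level was 5737 to 6769 CPM in CD206neg and 11320 to 14760 CPM in CD206pos.

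Between CD206neg and CD206pos, 3 adhesion genes changed, and all 3 were lower in CD206pos: Itgb2, Cd44 and Selp. None was called higher in this test. Of all tested genes 2.97% were, a share too small for a set of 25 tested genes to show a difference. Itga9 was called higher in other fits given below. Of the 31 genes, 25 passed the filter on low counts, 22 of them did not pass the test, and 6 were too low to test. The 3 calls are 12.0% of the 25, where 4.87% of all 12668 tested genes were called in either direction and 1.90% were called lower (edgeR quasi-likelihood test, Benjamini-Hochberg adjusted p under 0.05). Selp, with 0 reads in CD206pos, passed the filter through CD206neg alone and could only be called lower. Other fits named here called 5.55% of all tested genes (litter as a block) and 10.1% (DESeq2). An unadjusted edgeR p under 0.05 was found for 11 of the 25, against 17.6% of all tested genes. By group these were 2 of 9 alpha chains, 4 of 6 beta chains, 1 of 5 immunoglobulin-type genes, 3 of 3 genes of selectin and hyaluronan binding and 1 of 2 activators. The median log2 fold change was -0.25 over the 25 genes and -0.0043 over all tested genes. In 11 of the 25 the groups did not overlap, 3 higher and 8 lower in CD206pos. Of all tested genes 24.6% did not overlap, 12.8% higher and 11.8% lower. In these sorted pools, fewer cells of a type and less RNA per cell cannot be told apart.

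**Figure D1:**
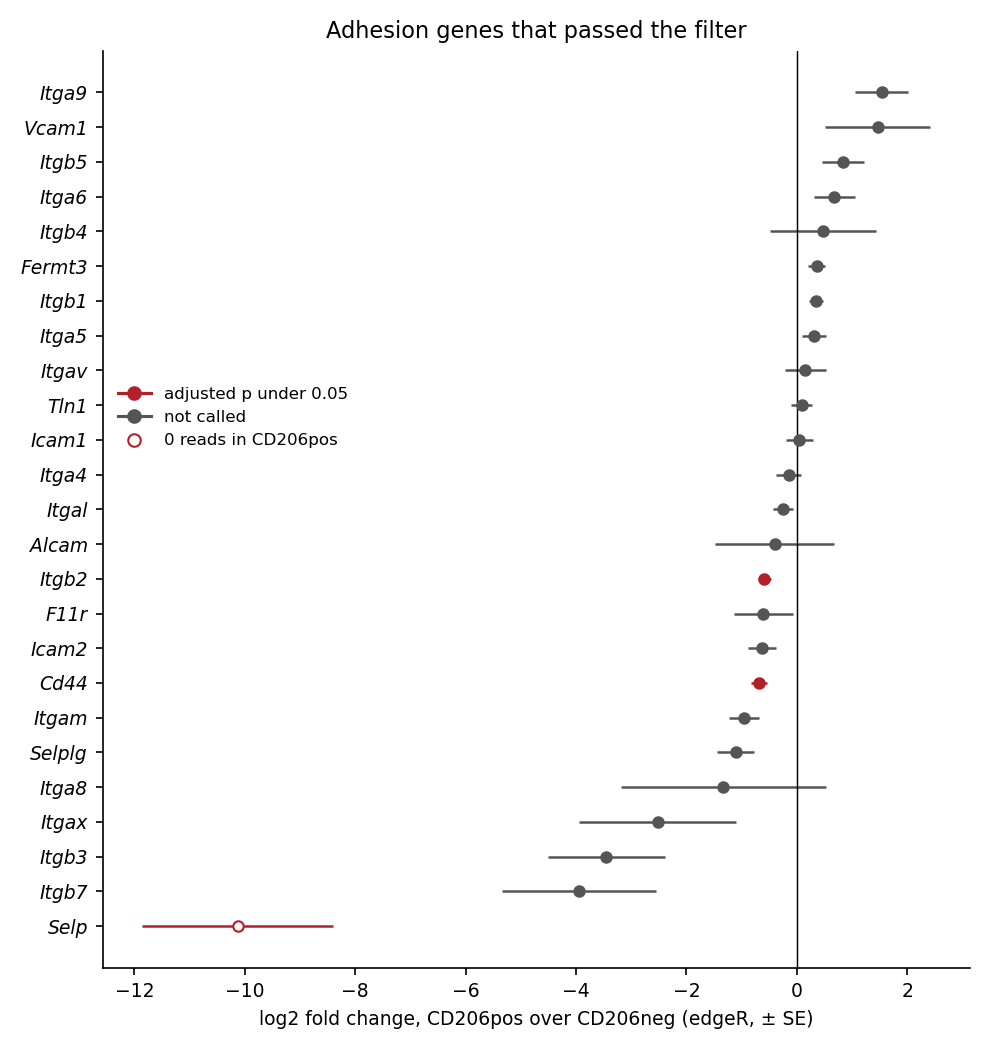
Log2 fold change (CD206pos over CD206neg, x axis) with its standard error for the 25 adhesion genes that passed the filter, ordered by size; red marks the 3 genes called by edgeR and the open symbol a gene with 0 reads in CD206pos. Selp, Cd44 and Itgb2 are red and lie left of 0, and the fitted Selp value is no measure of its fold because no CD206pos library had a read.

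Itgb2 (ENSMUSG00000000290, GRCm38 chromosome 10, 77530252 to 77565708, plus strand) encodes CD18, the common beta chain of the leukocyte integrins. It was at 287, 266 and 290 CPM in CD206neg, in the order of litters 1, 2 and 3 used throughout, and at 185, 190 and 186 CPM in CD206pos. The groups did not overlap, and the CD206pos values lay close together. The fall was 1.503-fold, a log2 fold change of -0.59 ± 0.12 (SE, adjusted p = 0.032 in edgeR). The call was lost when any CD206neg library, CD206pos replicate 2 or CD206pos replicate 3 was left out (adjusted p 0.087 to 0.11) and when any litter was (0.095 to 0.30), while the log2 fold change kept its sign and lay between -0.68 and -0.56 under the alternatives run.

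Itgb1, the beta chain of the fibronectin, laminin and VCAM-1 receptors, did not pass the test. It was at 329, 349 and 298 CPM in CD206neg and at 428, 439 and 376 CPM in CD206pos, groups that did not overlap (log2 fold change 0.35 ± 0.13, adjusted p = 0.20). Set against each other per kb of exon, the order of the 2 chains differed between the groups. Itgb1 was at 0.858, 0.979 and 0.767 times the level of Itgb2 per kb in the CD206neg libraries and at 1.73, 1.73 and 1.51 times that level in the CD206pos libraries. So per kb Itgb2 was the higher of the pair in each CD206neg library and Itgb1 in each CD206pos library. In CPM not divided by length, Itgb1 was the higher in every library. The order in CD206neg therefore depends on the annotated exon lengths (4081 bp for Itgb1, 3052 bp for Itgb2), while the difference between the groups does not. A ratio within a library does not depend on how libraries are scaled to each other. The exact permutation test over libraries gave p = 0.10 for it (two-sided, n = 3 per group), which is the smallest value that 3 against 3 allows. Both chains separated the groups, in opposite directions, so their ratio had to do so and this p adds no support. Ratios of other pairs were computed too, with p from 0.10 (Itga6 over Itgam) to 0.60 (Itga4 over Itgal) in the same test.

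**Figure D2:**
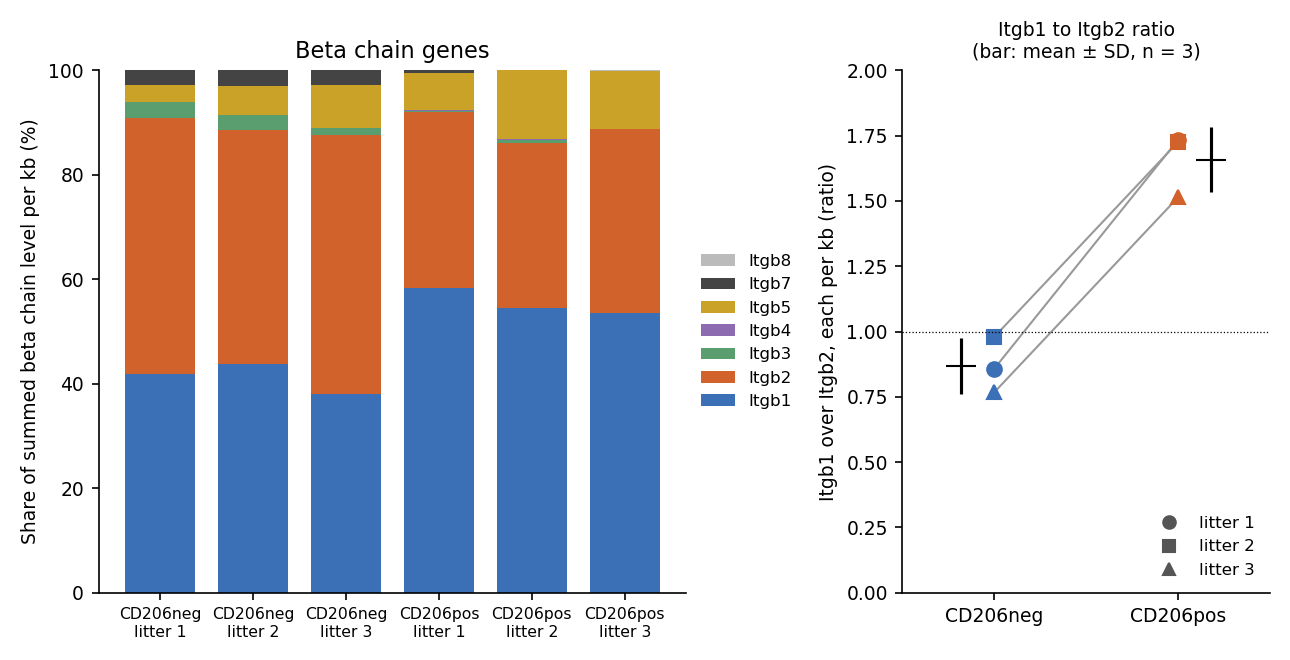
Left, share of each beta chain gene in the summed beta chain level per kb (percent, 1 bar per library); right, ratio of Itgb1 to Itgb2, each per kb, with lines joining the libraries of a litter and bars for mean ± SD. The ratio lies under 1 in the 3 CD206neg libraries and over 1.5 in the 3 CD206pos libraries.

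Itgb1 and Itgb2 together made up most of the beta chain level per kb. Itgb2 took 47.7% ± 2.62 (SD, n = 3) of it in CD206neg and 33.5% ± 1.87 in CD206pos, and Itgb1 took 41.3% ± 2.95 and 55.5% ± 2.57. Itgb5, which pairs with Itgav to bind vitronectin, was next in CD206pos. Its values were 20.3, 36.55 and 52.0 CPM in CD206neg and 42.9, 87.7 and 64.0 CPM in CD206pos, overlapping groups in which each litter was higher in CD206pos (adjusted p = 0.29).

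The beta chains Itgb3 and Itgb7 had wide gaps between the groups but 1 or 2 CD206pos libraries with reads, and neither passed the test. Itgb3, the beta chain of the platelet fibrinogen receptor and of a vitronectin receptor, was at 35.5, 32.7 and 15.3 CPM in CD206neg and at 1.90 and 5.73 CPM in CD206pos litters 1 and 2, with 0 reads in litter 3 (adjusted p = 0.12). Itgb7, which joins Itga4 or Itgae in gut homing, was at 15.0, 15.9 and 15.3 CPM in CD206neg and at 3.00 CPM in CD206pos litter 1, with 0 reads in litters 2 and 3. The Itgb7 adjusted p was 0.18 and fell to 0.0039 without CD206pos replicate 1, the only CD206pos library with Itgb7 reads. Itgb4, the epithelial beta chain, reached at most 2.64 CPM in a library. Itgb8 had 38 reads in CD206pos litter 3 and 0 in the other libraries.

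Of the alpha chains, 9 of 14 were tested and none was called by edgeR. The median log2 fold change of the 9 was -0.15, and 2 of them, Itga9 and Itgam, had an unadjusted p under 0.05, as 17.6% of all tested genes did. Leaving Itgam aside, the highest alpha chain levels per kb were those of Itgal, the LFA-1 alpha chain, Itga5, the fibronectin receptor, and Itga6, a laminin receptor. Per kb of exon, the CD206neg and CD206pos means were 16.96 and 14.3 CPM for Itgal, 15.2 and 18.8 CPM for Itga5, and 8.27 and 13.3 CPM for Itga6. The libraries of Itgal, Itga5 and Itga6 did not separate the groups. Itgam, given next with its partners, cannot be ranked with them over its full length.

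Itgal was at 105, 124 and 105 CPM in CD206neg and at 95.0, 110 and 76.2 CPM in CD206pos (adjusted p = 0.58). Itga5 was at 56.3, 74.2 and 72.1 CPM in CD206neg and at 62.1, 96.4 and 92.3 CPM in CD206pos (adjusted p = 0.55). For Itga6 the CD206neg libraries gave 34.6, 86.9 and 102.5 CPM and the CD206pos libraries 85.0, 128 and 146 CPM (adjusted p = 0.42). Litter 1 was the low library in both groups for Itga6, and each litter was higher in CD206pos.

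Itgal, Itgam and Itgax, the alpha partners of Itgb2 in the set, lie on chromosome 7 of GRCm38, Itgal at 127296260 to 127335138, Itgam at 128062640 to 128118491 and Itgax at 128129547 to 128150657, all on the plus strand. All 3 had negative log2 fold changes (-0.25, -0.95 and -2.52), none of them called. Itgam encodes CD11b, the alpha chain of complement receptor 3. It was at 24.6, 38.8 and 40.1 CPM in CD206neg and at 15.0, 18.05 and 20.5 CPM in CD206pos, 1.94-fold lower without overlap of the groups, with an adjusted p of 0.10 in edgeR and 0.020 in DESeq2. Another annotated gene on the same strand, Gm49368, covers 68.7% of the Itgam exon length, and reads there belong to no gene in such counting. Gm49368 itself had at most 1 read, and the CD206neg and CD206pos means of Itgam were 21.9 ± 5.45 and 11.3 ± 1.75 CPM per kb of exon not shared with it (SD, n = 3), which in CD206neg is above the Itgal mean. Itgax, encoding CD11c, had 50, 50 and 8 reads in CD206neg and 0, 5 and 13 in CD206pos, so the groups overlapped.

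Among the remaining alpha chains, Itga9, a receptor for tenascin and VCAM-1, had the largest positive log2 fold change. It was at 4.09, 9.61 and 8.85 CPM in CD206neg and at 10.45, 27.6 and 27.5 CPM in CD206pos. The CD206pos libraries lay above the CD206neg libraries, 2.91-fold on average (log2 fold change 1.54 ± 0.48, adjusted p = 0.13). With the litter as a block Itga9 was called higher (adjusted p = 0.038), as it was with DESeq2 (adjusted p = 0.029). Itga4, the alpha chain of the VCAM-1 and fibronectin receptor on blood progenitors and other leukocytes, had means of 49.1 ± 11.7 and 44.3 ± 0.97 CPM (SD, n = 3 libraries; edgeR adjusted p = 0.82). Itgav, the alpha chain of vitronectin receptors, had means of 16.98 ± 4.62 and 18.9 ± 7.45 CPM (adjusted p = 0.90). Neither Itga4 nor Itgav separated the groups, and both changed sign when some libraries were left out.

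The alpha chains of collagen, laminin and matrix receptors on other tissues were almost unread. Itga1 and Itga2, collagen receptors that lie next to each other on chromosome 13, had 0 reads in all 6 libraries, where 3 reads in a library stand for 0.165 to 0.179 CPM before scaling. Itga3 and Itga7 had reads in CD206neg litter 3 only, 6 and 18. Itgae, the partner of Itgb7 on epithelial lymphocytes, had at most 10 reads in a library. Itga8, a nephronectin receptor of embryonic kidney, was at or under 3.13 CPM in each library, with 0 reads in CD206pos litters 2 and 3 (adjusted p = 0.81).

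**Figure D3:**
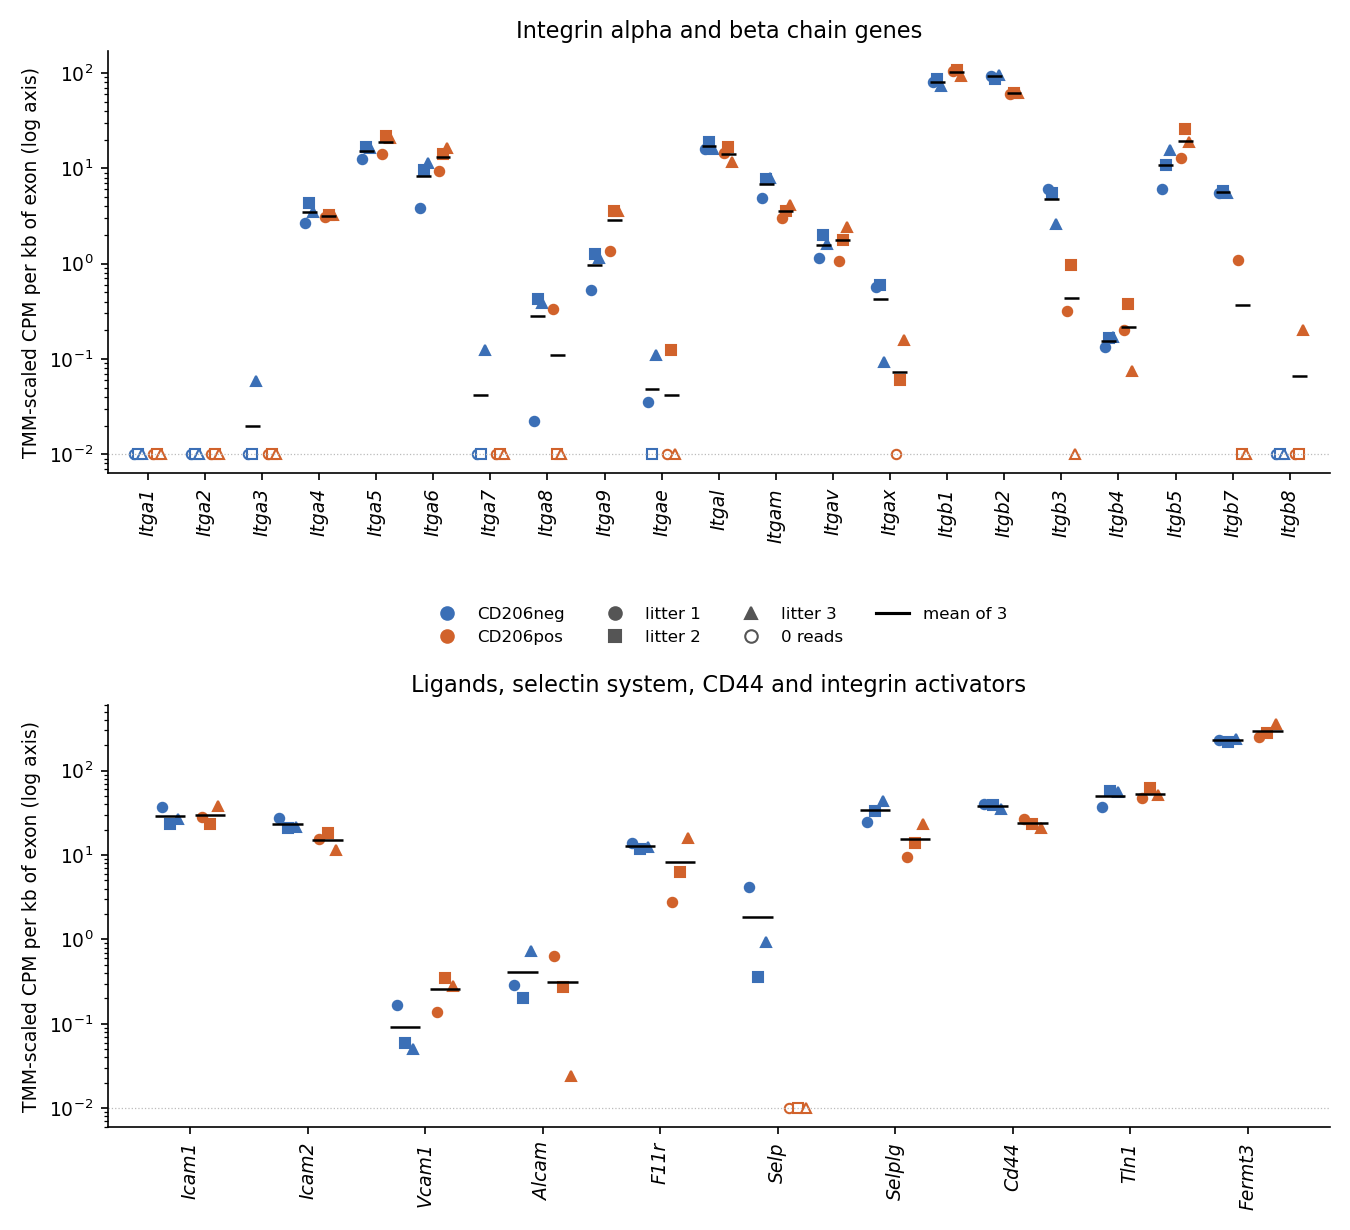
CPM per kb of exon (log axis) of the 31 adhesion genes in each library, blue for CD206neg and orange for CD206pos, with symbols for litters 1, 2 and 3, black bars for the mean of 3 libraries and open symbols on the dotted line for 0 reads; Itgam is drawn over its full exon length and so too low. Itgb1 and Itgb2 lie above the other integrin chains, Fermt3 lies highest of all genes shown, and Selp has open symbols in the 3 CD206pos libraries.

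All 3 genes of selectin and hyaluronan binding had lower values in CD206pos, and 2 of them, Cd44 and Selp, passed the test. Cd44 (ENSMUSG00000005087, GRCm38 chromosome 2, 102811141 to 102901665, minus strand), the hyaluronan receptor, was at 276, 264 and 236 CPM in CD206neg and at 179, 160 and 143 CPM in CD206pos. The groups did not overlap, and the fall was 1.61-fold (log2 fold change -0.69 ± 0.15, SE, adjusted p = 0.033). Leaving out any CD206neg library, CD206pos replicate 2 or CD206pos replicate 3 ended the Cd44 call (adjusted p 0.062 to 0.14), as did leaving out any litter (0.075 to 0.34), with log2 fold changes between -0.78 and -0.64 over the alternatives run.

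Selp (ENSMUSG00000026580, GRCm38 chromosome 1, 164115264 to 164150026, plus strand) encodes P-selectin, a receptor of platelets and endothelium. It had 338, 27 and 74 reads in CD206neg, or 18.4, 1.56 and 4.17 CPM, and 0 reads in the 3 CD206pos libraries. Most of the reads came from litter 1. Against 3 reads over the CD206pos group, Selp was at least 137-fold lower there (adjusted p = 0.026), a bound for counting error only. Without CD206neg replicate 1, Selp was at least 48.9-fold lower. The Selp call was lost whichever of the 6 libraries was left out (adjusted p 0.051 to 0.13). Selplg, the P-selectin ligand of leukocytes, was at 106, 141 and 186 CPM in CD206neg and at 40.5, 59.8 and 101 CPM in CD206pos. Its groups did not overlap and it was 2.16-fold lower in CD206pos, without passing the test (log2 fold change -1.11 ± 0.34, adjusted p = 0.12). With the litter as a block Selplg was called lower (adjusted p = 0.011), as it was with DESeq2 (adjusted p = 0.019) and in the fit that left out CD206pos replicate 3 (adjusted p = 0.045).

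Promoter windows from 250 bases before to 50 bases after the transcription start were taken from RefSeq (GRCm38.p6), which gave 22 windows for 21 of the 31 genes and none for Itgb2. They are printed for Cd44 and Selp, which changed, and for Itgam and Itgb1, the alpha and beta chains with non-overlapping groups that have an entry and the most reads. Capitals mark the letters GAGGAA or TTCCTC, the core that PU.1, a myeloid transcription factor, prefers on either strand. The letters TGTGGT or ACCACA, a core of RUNX factors, were searched as well, share no base order with the first motif and were not found in these 4 windows.
Cd44, GRCm38.p6 chr2:102901616-102901915, minus strand: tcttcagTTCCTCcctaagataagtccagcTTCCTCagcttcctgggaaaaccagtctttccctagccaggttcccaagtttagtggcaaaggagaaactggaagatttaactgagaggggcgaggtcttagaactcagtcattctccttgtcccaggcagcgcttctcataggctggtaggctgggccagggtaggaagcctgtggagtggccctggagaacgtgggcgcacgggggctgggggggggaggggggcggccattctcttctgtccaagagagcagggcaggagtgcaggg
Selp, GRCm38.p6 chr1:164115014-164115313, plus strand: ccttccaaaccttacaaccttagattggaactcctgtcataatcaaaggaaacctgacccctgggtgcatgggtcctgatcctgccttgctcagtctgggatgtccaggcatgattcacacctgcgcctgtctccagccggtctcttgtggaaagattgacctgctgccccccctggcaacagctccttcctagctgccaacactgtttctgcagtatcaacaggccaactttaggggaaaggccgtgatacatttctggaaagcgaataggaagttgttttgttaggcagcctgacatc
Itgam, GRCm38.p6 chr7:128062390-128062689, plus strand: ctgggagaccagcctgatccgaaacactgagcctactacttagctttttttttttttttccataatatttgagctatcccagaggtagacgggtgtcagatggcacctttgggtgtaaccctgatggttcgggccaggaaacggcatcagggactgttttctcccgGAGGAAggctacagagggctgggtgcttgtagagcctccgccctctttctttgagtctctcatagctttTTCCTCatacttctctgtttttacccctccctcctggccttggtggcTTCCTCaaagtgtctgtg
Itgb1, GRCm38.p6 chr8:128685404-128685703, plus strand: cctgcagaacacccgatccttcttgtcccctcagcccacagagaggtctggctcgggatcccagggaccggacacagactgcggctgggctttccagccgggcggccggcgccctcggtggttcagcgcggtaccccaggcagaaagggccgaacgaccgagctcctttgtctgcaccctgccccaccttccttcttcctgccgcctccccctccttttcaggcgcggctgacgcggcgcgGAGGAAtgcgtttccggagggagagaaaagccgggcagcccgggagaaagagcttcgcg
The PU.1 letters stood 3 times in the Itgam window, first bases at -84, -15 and 33 from the start, 2 times in the Cd44 window (-243 and -220) and 1 time in the Itgb1 window (-9). The Selp window held neither motif. Among members' windows 10 of 22 held the PU.1 letters, 45.5% against 28.3% of all 32851 windows, and 4 of 22 held the RUNX letters, which stood in 16.8% of all windows. These matches describe letters and not binding.

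None of the 5 immunoglobulin-type genes passed the test. Icam1, a ligand of the Itgb2 integrins, was at 163, 101 and 117.5 CPM in CD206neg and at 123.5, 102 and 168.5 CPM in CD206pos, overlapping ranges (log2 fold change 0.049 ± 0.24, adjusted p = 0.96). Icam2, a second such ligand, was at 52.3, 40.0 and 40.9 CPM in CD206neg and at 29.5, 34.9 and 21.7 CPM in CD206pos. The Icam2 groups did not overlap, at 1.55-fold lower in CD206pos (adjusted p = 0.23). F11r, the junctional adhesion molecule JAM-A, was at 31.2 to 36.9 CPM in CD206neg and spread from 7.40 to 42.7 CPM in CD206pos (adjusted p = 0.65). Vcam1, the counter-receptor of Itga4 with Itgb1, stayed under 3.10 CPM in each library, with 8 to 27 reads in CD206neg and 20 to 54 in CD206pos (adjusted p = 0.50). Alcam, an adhesion molecule of activated leukocytes, had 25 to 93 and 3 to 74 reads (adjusted p = 0.91).

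Both cytoplasmic activators were read at high levels in both groups. Per kb of exon, Fermt3 had the highest level of the 31 genes, 231 CPM in CD206neg and 297 CPM in CD206pos. It was at 602, 565 and 622 CPM in CD206neg and at 654, 725 and 925 CPM in CD206pos, groups that did not overlap (log2 fold change 0.36 ± 0.15, adjusted p = 0.26). Tln1 was at 368, 566 and 543 CPM in CD206neg and at 466, 605 and 500 CPM in CD206pos, overlapping ranges (adjusted p = 0.89). Its log2 fold change of 0.089 turned to -0.0027 with library totals as the only scaling.

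Other adhesion genes were taken from 6 lists drawn from general knowledge. The shares called in them stand against 4.87% of all tested genes, 2.97% higher and 1.90% lower. Among 32 integrin adaptors and kinases 29 were tested, of which 1 rose, 1 fell and 27 did not pass (6.90% called, median log2 fold change 0.025). Tln2, the second talin gene, rose 5.29-fold, from 18.03, 28.5 and 15.7 CPM in CD206neg to 89.5, 123 and 117 CPM in CD206pos (log2 fold change 2.40 ± 0.27, adjusted p = 0.0023). Per kb of exon it stayed far under Tln1, at 0.0228 ± 0.0064 times the Tln1 level in CD206neg and 0.112 ± 0.0116 times in CD206pos (SD, n = 3). The Tln2 call was lost in 1 of 15 alternatives, without litter 2 (adjusted p = 0.075). Ptk2b, the Pyk2 kinase that acts downstream of leukocyte integrins, fell 2.34-fold, from 79.1, 100.4 and 74.7 CPM to 36.8, 37.5 and 34.4 CPM (adjusted p = 0.0086). Leaving out CD206neg replicate 2 ended the Ptk2b call (adjusted p = 0.057), as did leaving out any litter (0.059 to 0.18).

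Of 15 genes around Rap1, the small GTPase that recruits talin to integrins, 14 were tested: 2 rose, 1 fell and 11 did not pass (21.4% called, median 0.13). Rasgrp2 and Rasgrp3, exchange factors for Rap and Ras, were called in opposite directions. Rasgrp2, the main Rap1 activator of platelets and neutrophils, fell 2.56-fold, from 50.6, 48.4 and 40.7 CPM to 21.6, 18.8 and 14.2 CPM (adjusted p = 0.017). Rasgrp3, its relative, rose 1.92-fold, from 35.8, 43.0 and 29.8 CPM to 56.9, 72.6 and 79.3 CPM (adjusted p = 0.048). Fyb, which encodes the adaptor ADAP, rose 1.75-fold, from 132, 185.5 and 170 CPM to 260, 281 and 313.5 CPM (adjusted p = 0.029). In none of the 3 did the groups overlap. Leaving out CD206neg replicate 1, CD206neg replicate 2 or CD206pos replicate 2 ended the Rasgrp2 call (adjusted p 0.068 to 0.090), as did leaving out any litter (0.072 to 0.24). Fyb lost its call when any CD206neg library, CD206pos replicate 2 or CD206pos replicate 3 was left out (adjusted p 0.076 to 0.14), when any litter was (0.064 to 0.26) and with library totals (0.053). The Rasgrp3 call depended on those same 5 libraries (adjusted p 0.10 to 0.20 without 1 of them) and was lost without any litter (0.11 to 0.34), with the litter block (0.056), RLE scaling (0.053) and library totals (0.069).

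Of 19 further adhesion receptors and partners 18 were in the files and 14 were tested: 1 rose, 2 fell and 11 did not pass (21.4% called, median -0.72). Cd34, a sialomucin of progenitors and endothelium, fell 15.3-fold, from 736, 488.5 and 526 CPM to 46.0, 49.95 and 18.3 CPM (adjusted p = 0.0014). Cd47, a partner of integrins and a signal against engulfment, fell 1.93-fold, from 248.6, 236 and 223.5 CPM to 142, 105 and 119 CPM (adjusted p = 0.011). Cd81, a tetraspanin that associates with integrins, rose 1.57-fold, from 417, 312.5 and 352 CPM to 516, 558 and 621 CPM (adjusted p = 0.046). The Cd34 call was lost in 1 of 15 alternatives, without litter 2 (adjusted p = 0.075). Cd47 lost its call when CD206neg replicate 1, CD206neg replicate 2 or CD206pos replicate 2 was left out (adjusted p 0.051 to 0.068), and without litter 2 (0.21) or 3 (0.087). Cd81 lost it whichever library was left out (0.052 to 0.19), without litter 2 (0.47) or 3 (0.28), with RLE scaling (0.054) and with library totals (0.070).

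Matrix ligands and selectin ligand enzymes gave 1 call together, which was 7.69% of the tested matrix genes against 4.87% of all tested genes. Of 19 matrix ligand and ADAM genes 13 were tested, and Adam9, a membrane protease whose disintegrin domain binds integrins, rose 2.22-fold, from 47.3, 65.6 and 46.5 CPM to 86.5, 132 and 135 CPM (adjusted p = 0.029). The Adam9 call was lost when any CD206neg library, CD206pos replicate 2 or CD206pos replicate 3 was left out (adjusted p 0.065 to 0.15) and when any litter was (0.056 to 0.24). Without litter 2, none of the 9 genes called in these lists passed the test. None of 8 tested enzymes that build selectin ligands was called by edgeR, with 1 of them at an unadjusted p under 0.05, against 17.6% of all tested genes. That number was 6 of 29 tested adaptors and kinases, 5 of 14 Rap1 genes, 9 of 14 further receptors and 6 of 13 matrix genes. Of the 6 other integrin chains only Itga2b, the alpha partner of Itgb3 on platelets and an early blood progenitor marker, passed the filter. Itga2b was at 26.6, 18.5 and 18.04 CPM in CD206neg and at 0, 0 and 3.12 CPM in CD206pos (adjusted p = 0.12, and 0.0034 without CD206pos replicate 3, the only CD206pos library with Itga2b reads).

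**Figure D4:**
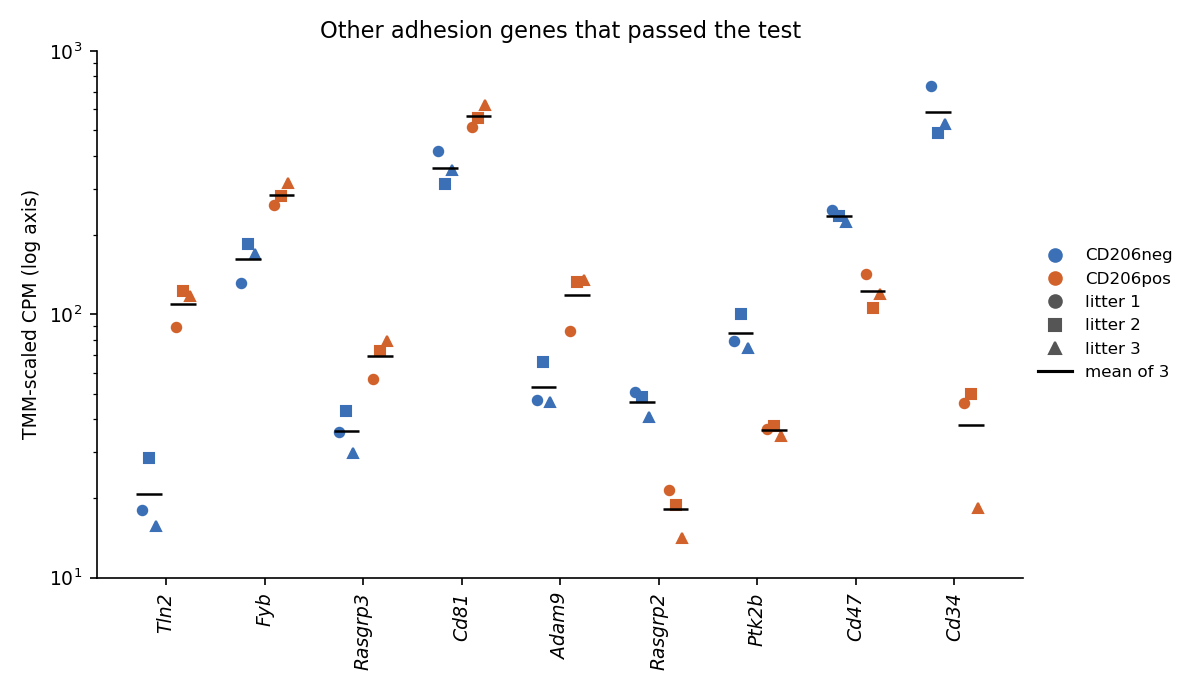
CPM (log axis) in each library of the 9 called genes of the further adhesion lists, blue for CD206neg and orange for CD206pos, with symbols for litters 1, 2 and 3 and black bars for the mean of 3 libraries. The groups do not overlap for any of the 9, and Cd34 shows the widest gap between them.

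Progenitor, granulocyte and some endothelial markers fell in CD206pos along with Itgb2, Cd44 and Selp, as did Cpa3 and Hdc of the mast cell list. Among all tested genes, 1.90% were called lower and 2.97% higher by edgeR. Of 10 progenitor markers 5 fell, with a summed level of 766 to 1039 CPM in CD206neg and 92.2 to 162 CPM in CD206pos, where Kit had 0 reads. All 8 tested of 12 granulocyte markers fell, and the sum of the list went from 1873 to 2897 CPM to 17.4 to 69.7 CPM. S100a8, S100a9, Ms4a3 and Fcnb had 0 reads in CD206pos, and Mmp8 had 8. Tested markers with 0 reads in CD206pos passed the filter through CD206neg alone and could only be called lower. Ctsg, Ngp and Camp also had 0 reads in CD206pos and did not pass the filter. In CD206neg, Ctsg had 2 reads and Ngp 250, both in litter 2 only, and Camp had 0 in litter 1. Of 9 megakaryocyte markers 3 were tested and none was called by edgeR, with 2, Itga2b and Vwf, at an unadjusted p under 0.05 (17.6% of all tested genes) and negative. The third, Ppbp, had a log2 fold change of 1.15 ± 0.90 (edgeR adjusted p = 0.60), with 0.65, 2.61 and 4.398 CPM in CD206neg and 1.28, 9.97 and 5.73 CPM in CD206pos. The summed level of the 9 was 27.9 to 38.7 CPM in CD206neg and 2.32 to 10.2 CPM in CD206pos, where Gp1bb, Gp5 and Gp6 had 0 reads. These were almost unread in CD206neg too: Gp5 had 0 reads, Gp6 had 1, and Gp1bb had 13 in litter 1 only. Both tested of 8 mast cell and basophil markers, Cpa3 and Hdc, fell. Cpa3 had 0 reads in CD206pos and Hdc had 11, so both passed the filter through CD206neg alone. The sum of the list went from 29.8 to 77.6 CPM to at most 0.63 CPM, where Hdc alone had reads. Mcpt8, Prss34, Cma1 and Tpsb2 had 0 reads in both groups. Ms4a2 had 48 reads in CD206neg litter 1 only, and Fcer1a had 15 in CD206neg litter 3 only. Of 10 endothelial markers 2 fell, from 202 to 339 CPM in sum to 69.8 to 107 CPM, with Sox17 at 0 reads in CD206pos, while 7 of 12 macrophage markers rose. The erythroid list ran the other way without a call: 4 of 10 were tested, 3 of them positive, with 2.78 to 5.86 CPM in sum in CD206neg and 12.8 to 16.4 CPM in CD206pos, most of it Epor (9.60, 11.7 and 10.8 CPM in CD206pos). Of 10 mesenchymal markers 6 were tested and none was called by edgeR, with 0 at an unadjusted p under 0.05 and 4.90 to 81.5 against 1.95 to 63.0 CPM in sum. Of 8 epithelial markers 4 were tested and none was called, with 1 at an unadjusted p under 0.05 and 12.4 to 33.1 against 2.01 to 10.3 CPM in sum. Itga2b, Cd34, Pecam1, Esam and Col1a1 stand both in the further adhesion lists and in these marker lists. The part of these cell types in the adhesion gene values was not tested.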

How the data were processed

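RNA-seq libraries of sorted GFP+ cells (3 CD206neg, 3 CD206pos) were compared. The deposited values are raw read counts per gene, made with featureCounts 1.5.2 over exons of GENCODE vM14 without strand, pair, multi-mapping or overlap options, per the file headers; reads on overlapping genes are therefore not counted, and reads of antisense partners are not separated. STAR 2.3 and the builds mm10 and GRCm38.p5 are named in the submitters' processing notes. Depth was 16730846 to 18214283 reads per library. Symbols (GENCODE M21) matched 51633 of 51912 identifiers.

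Counts were tested with edgeR 4.0.16 (filterByExpr, TMM, robust quasi-likelihood F test, Benjamini-Hochberg over 12668 genes). The test was checked on simulated data; the first simulated draw gave a larger share of false calls than the limit set for it, and the check was then changed to pool 8 draws, which met that limit. The SE is the log2 fold change over the square root of F. Folds are ratios of mean CPM. Same-numbered libraries were read as 1 litter, from the titles and the design text, which names 3 independent litters; their deviations from the group means correlated at 0.089, 0.039 and 0.18. Chi-square per degree of freedom within groups was 36.9 to 90.4, so no library was a copy. Libraries are pools of AGM from 3 litters, so p-values measure the spread between these pools. Reads carry no molecular identifiers, so bounds cover counting error only.

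Alternatives were the litter block, RLE scaling, library totals, no filter, a filter of 5 CPM in 3 libraries, DESeq2 1.42.0, and fits that left out 1 library or 1 litter at a time. Members and lists were chosen with earlier results of these data known. Library values are given for members called or at 50 CPM or more in a group mean; Itgam, Itga9, Itgax, Itgb3, Itgb7 and Icam2 were added after their values were seen; up to 4 called genes per list and direction are named, plus Itga2b. Genes left out of the adhesion and marker lists are not reported here. Cd99 is not among the matched names and was not analysed here.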

Additional observations from a re-analysis of the deposited data

How the results depend on the processing

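Of the 31 adhesion genes, 3 were called lower and 0 higher. With the litter as a replicate block 4 were lower (with Selplg) and 1 higher (Itga9), and all genes called were 703 against 617. DESeq2 called 5 lower (with Selplg and Itgam) and 1 higher (Itga9), and 1428 genes in all. RLE scaling, library totals and no filter each gave the same 3 genes, and the stricter filter gave 2, since Selp was not tested under it. Leaving out a library or a litter gave 0 to 3 genes lower, 0 higher and between 3 (without litter 2) and 561 genes in all; fewer libraries entered those fits. Without CD206neg replicates 1, 2 and 3 the counts of all genes called were 272, 190 and 319 and no adhesion gene was called, likewise without CD206pos replicate 2 (238). Of all calls, 60.9% were higher in CD206pos with TMM and 49.0% with library totals, under which the median of all tested genes was -0.093. The litter block ended the call of Rasgrp3 (adjusted p = 0.056) and, beside it, changed no other call of a named gene than Selplg and Itga9.

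Over 35 named genes and their alternatives, 411 of 519 values kept direction and side of the threshold, 80 kept direction but lost the call, 10 gained one and 18 changed sign, the last in genes that were not called in any of these settings. With library totals Icam1 was at -0.037 and Tln1 at -0.0027. Over the fits without a library or litter the log2 fold change lay between -0.26 and 0.31 for Icam1, -0.0825 and 0.202 for Tln1, -0.31 and 0.037 for Itga4, -0.18 and 0.41 for Itgav, -0.22 and 0.92 for Itgb4 and -1.65 and 0.84 for Alcam; the cause was not tested. Standard errors on the log2 scale were 0.95, 0.96, 1.08, 1.42 and 1.85 for Vcam1, Itgb4, Alcam, Itgax and Itga8. These genes had at most 93 reads in a library. The standard errors were 1.06, 1.39 and 1.73 for Itgb3, Itgb7 and Selp, which had more. The part of depth in these standard errors was not tested.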
